A study of Mus musculus with 9 samples.

Results

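The 10 genes Cd209a, Clec4a4, Sirpa, Esam, Clec10a, Mgl2, Clec12a, Dtx1, Zeb2 and Mmp12, used as markers of type 2 dendritic cells (DC), were followed across 3 sorted populations of the mouse spleen. They were chosen by name, and all 10 were found among the 50508 rows of the count table. The populations were TDC, conventional DC and conventional T cells, with 3 libraries each, all from untreated mice aged 8 weeks and homozygous for a Zbtb46-GFP reporter. Each library came from pooled spleens, of 5 mice for replicate 1 and 6 mice for replicates 2 and 3. Every population carried the homozygous reporter, so no group without it was compared, and the sources used here do not give the sort gates. Levels are CPM (reads of a gene scaled to library size, with TMM factors), from a kit that reads near the 3′ end of transcripts.

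Conventional DC of the spleen fall into a type 1 branch, which takes up dead cells and presents their antigens to CD8 T cells, and a type 2 branch, which presents antigen mainly to CD4 T cells. Type 2 DC carry the surface receptor SIRPα and several C-type lectins, receptors that bind sugars or other ligands on microbes and cells. Splenic type 2 DC that carry ESAM depend on Notch2 signals, and transcription factors such as IRF4 and ZEB2 take part in the branch. Several of these genes are also used by macrophages or monocytes, Sirpa, Zeb2, Clec12a and Mmp12 among them.

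Library totals were 10986544 to 25676640 reads, so that 1 read stood for 0.0383 to 0.0897 CPM. The list of 15 T cell markers summed to 120.1 to 391 CPM in TDC, 60.8 to 108 CPM in DC and 10059 to 13662 CPM in T cells. Most of the DC sum came from Tcf7 and Cd5, named after their values were seen, with means of 62.4 and 22.7 CPM. Cd3e averaged 9.01 CPM in TDC and had no read in DC. The median log2 fold change of the list, TDC over DC, was 6.60, against 0.01 for all genes tested. The 18 genes of the conventional DC core summed to 11653 to 22544 CPM in TDC and 63487 to 112858 CPM in DC. The 16 macrophage markers, none of them at 0 in TDC or DC, summed to 68896 to 106582 CPM in TDC and 801 to 1255 CPM in DC. The 9 erythroid markers found summed to 700.2 to 2219.7 CPM in TDC and 1.49 to 22.4 CPM in DC. In sorted pools, fewer cells of a type and less RNA per cell cannot be told apart.

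The type 2 DC marker genes did not move as a block between TDC and DC. Of the 10 genes, 4 were lower in TDC (Mmp12, Clec4a4, Cd209a and Dtx1), 2 were higher (Sirpa and Zeb2) and 4 did not pass (Mgl2, Clec10a, Esam and Clec12a). A gene was called where its Benjamini-Hochberg adjusted p lay under 0.05 in the quasi-likelihood test of edgeR. Over all 14708 genes tested, 14.1% were called, 9.55% as higher and 4.60% as lower in TDC. TDC and DC libraries did not overlap for 8 of the 10 genes, against 34.9% of all genes. The exceptions were Esam and Clec10a. The median log2 fold change of the 10 genes was -2.59, and that of all genes was 0.01. Mgl2 reached the filter on low counts through its DC libraries alone, and the other 9 genes passed through TDC and DC libraries alike. Over those 9 genes, 7 did not overlap and the median log2 fold change was -1.35. These counts and medians are a description.

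**Figure D1:**
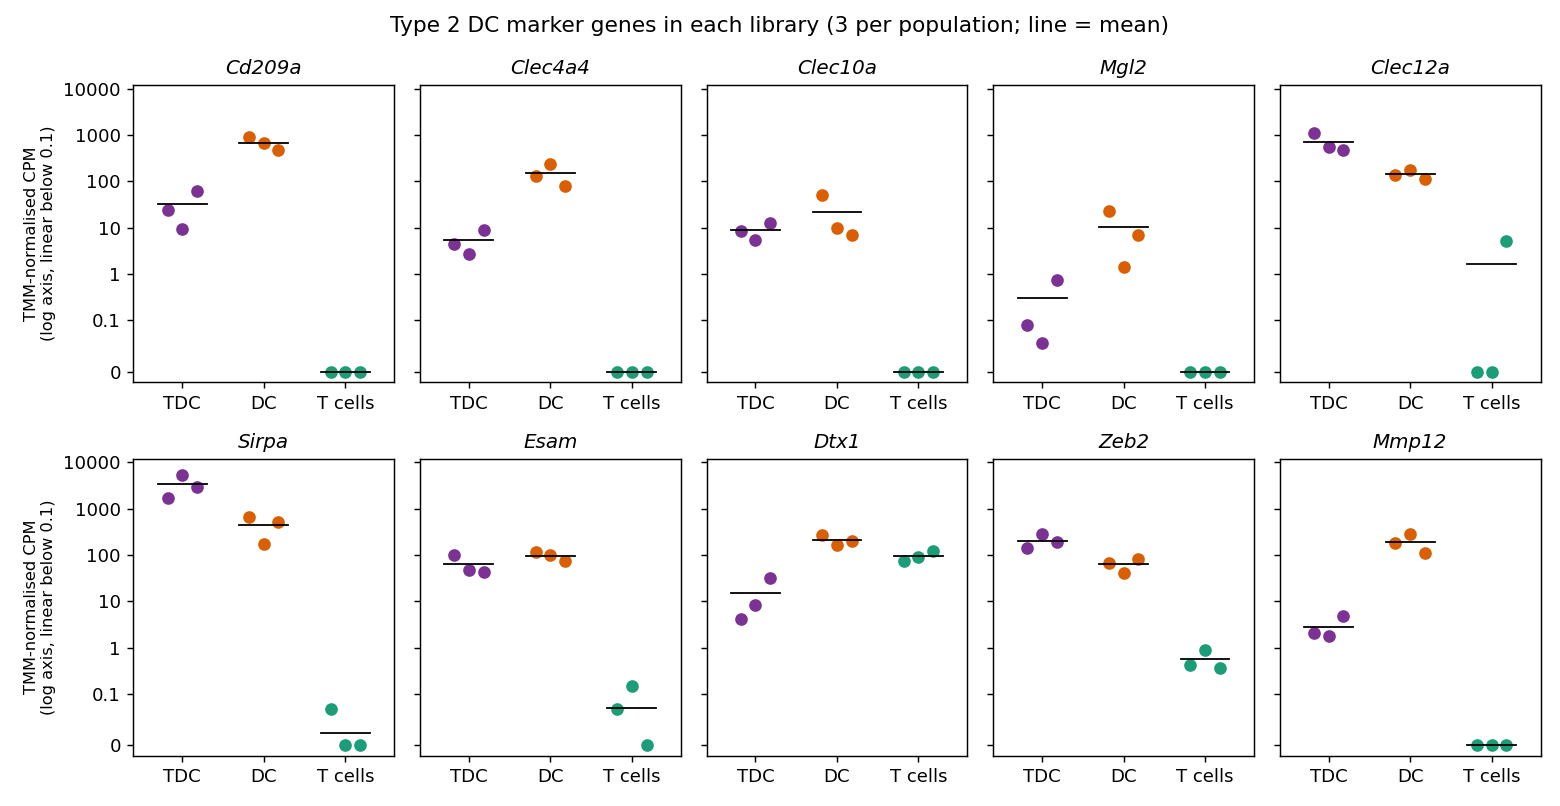
TMM-normalised CPM of the 10 genes in each library, on an axis that is logarithmic above 0.1 CPM and linear below it. Points are libraries and lines are means of 3. Cd209a, Clec4a4, Dtx1 and Mmp12 sit lower in TDC than in DC in every library, Sirpa, Zeb2 and Clec12a sit higher, and only Dtx1 is above 10 CPM in T cells.

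Of the 5 C-type lectin genes, Cd209a and Clec4a4 were called lower in TDC. Cd209a encodes a mouse relative of the human receptor DC-SIGN (GRCm38 chromosome 8, 3743397 to 3748984, minus strand, per GENCODE). It had 24.3, 9.31 and 60.9 CPM in TDC libraries 1 to 3, against 908, 657 and 462 CPM in DC libraries 1 to 3. The highest TDC library lay far below the lowest DC library. The mean was 31.5 ± 26.5 CPM in TDC and 676 ± 224 CPM in DC (SD, n = 3 each), so TDC held 4.66% of the DC level. The log2 fold change was -4.42 (SE 0.70, edgeR adjusted p = 0.00468), and without TDC replicate 3 it was -5.40. Over 21 other settings it ran from -5.58 to -3.99, and the call ended without all libraries numbered 1 (edgeR adjusted p = 0.0836). No read was counted in any T cell library.

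Clec4a4 encodes DCIR2, an inhibitory lectin found on type 2 DC of the spleen (chromosome 6, 122990367 to 123024105, plus strand). It had 4.31, 2.68 and 8.79 CPM in TDC, against 127, 237 and 79.0 CPM in DC, with no read in T cells. The groups were separated, and TDC averaged 5.26 ± 3.17 CPM against 148 ± 81.1 CPM in DC. This gave a log2 fold change of -4.82 (SE 0.64, edgeR adjusted p = 0.00218), and -5.45 without TDC replicate 3. Over 21 other settings it ran from -5.71 to -4.03, and the call ended without all libraries numbered 1 (edgeR adjusted p = 0.0513).

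Among the neighbours of Clec4a4, Clec4a3 was called higher in TDC. Clec4a3, Clec4a1 and Clec4a2 lie near it on the plus strand of chromosome 6 and encode related lectins. Clec4a3 had 835, 445 and 454 CPM in TDC and 137, 87.2 and 78.3 CPM in DC, a log2 fold change of 2.52 (SE 0.40, edgeR adjusted p = 0.00466). Clec4a2 had 474, 229.5 and 181 CPM in TDC and 78.5, 129 and 39.3 CPM in DC, without overlap and short of the threshold (1.84, SE 0.53, edgeR adjusted p = 0.0541). Clec4a1 had 74.8, 89.7 and 56.9 CPM in TDC and 41.9, 23.8 and 36.8 CPM in DC (1.11, SE 0.53, edgeR adjusted p = 0.206). All 3 neighbours were thus higher in every TDC library than in any DC library, whereas Clec4a4 was lower in every one. None of the 451 windows of 50 bases in the last 500 bases of the Clec4a4 or the Cd209a transcript occurs in a transcript of another gene, so reads from this end can be told apart from those of relatives.

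The Cd209 cluster on chromosome 8 was mixed. Cd209d had 0, 4.13 and 4.99 CPM in TDC and 10.2, 18.3 and 29.5 CPM in DC and did not pass (-2.66, SE 1.25, edgeR adjusted p = 0.209). Cd209b, which marginal zone macrophages use, had 15.4, 46.9 and 32.4 CPM in TDC and 17.6, 3.27 and 14.2 CPM in DC, with overlap (1.43, SE 0.70, edgeR adjusted p = 0.226). Cd209f and Cd209g had 134 and 66 reads over the TDC libraries and none in DC or T cells. Cd209f averaged 2.79 ± 2.33 CPM in TDC, at least 53.2-fold above the limit of 3 reads over the DC group (edgeR adjusted p = 0.0221). Cd209g was at 1.52 ± 0.632 CPM, at least 29.0-fold above it (edgeR adjusted p = 0.0243). Both genes passed the filter on low counts through TDC libraries alone, so they could only come out higher there. Their p-values are thus no support. The Cd209f reads were spread unevenly, with 14, 98 and 22 in TDC libraries 1 to 3. Of the Cd209 genes tested, Cd209a was the one called lower.

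**Figure D2:**
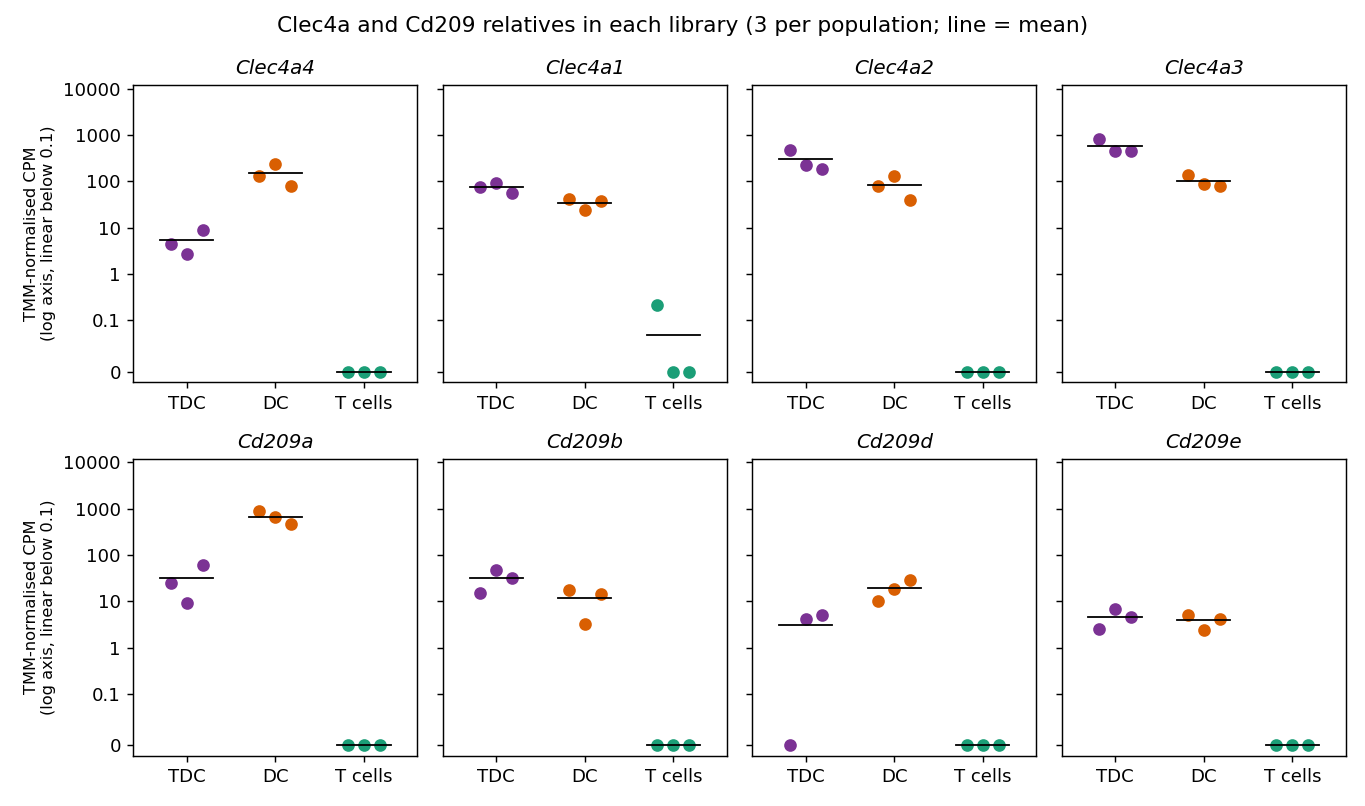
TMM-normalised CPM of Clec4a and Cd209 relatives in each library, on an axis that is logarithmic above 0.1 CPM and linear below it, with lines at the means of 3 libraries. Clec4a4 and Cd209a are lower in TDC than in DC, and Clec4a1, Clec4a2 and Clec4a3 are higher.

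Clec10a and Mgl2 encode the paired galactose-type lectins MGL1 and MGL2 and lie side by side on chromosome 11 (70156197 to 70170834 and 70130329 to 70137550, both plus strand). Clec10a had 8.44, 5.30 and 12.4 CPM in TDC, against 49.6, 9.82 and 6.98 CPM in DC. The groups overlapped, and DC replicate 1 alone was high. Its log2 fold change was -1.35 (SE 0.82, edgeR adjusted p = 0.333), and without DC replicate 1 it was 0.06 (edgeR adjusted p = 0.984). Mgl2 rested on few reads in TDC, with 1, 1 and 10, against 597, 20 and 115 reads in DC. That gave 0.0897, 0.0558 and 0.745 CPM in TDC and 22.9, 1.39 and 6.86 CPM in DC. The groups did not overlap, and the call was not made (log2 fold change -5.10, SE 1.46, edgeR adjusted p = 0.0513). It was made in 9 of 21 other settings, among them without DC replicate 2 (edgeR adjusted p = 0.0358), without TDC replicate 3 (edgeR adjusted p = 0.0477) and by DESeq2. Adjusted p ran from 0.00123 to 0.330 over the 21 settings. Mgl2 passed the filter on low counts through its DC libraries alone, so it could only come out lower in TDC. Its p-values and calls against DC are thus no support.

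Reads of this pair can be confused. Of the 451 windows of 50 bases in the last 500 bases of the longest Clec10a coding transcript, 92 occur in Mgl2. For Mgl2, 19 windows occur in other genes, none of them Clec10a. In reads, Clec10a exceeded Mgl2 94, 95 and 16.6 times in TDC libraries 1 to 3, and 2.17, 7.05 and 1.02 times in DC libraries 1 to 3. These ratios did not overlap between TDC and DC. When both genes were counted together, a choice made after seeing the data, the change of the sum was a log2 fold change of -1.86 (edgeR adjusted p = 0.172).

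Clec12a encodes an inhibitory lectin that binds uric acid crystals of dead cells (chromosome 6, 129342691 to 129365303, plus strand). It had 1111, 548 and 476 CPM in TDC, against 136, 179 and 111 CPM in DC. Every TDC library was above every DC library, and the means were 712 ± 348 CPM in TDC and 142 ± 34.0 CPM in DC, a ratio of 5.02. The log2 fold change of 2.33 (SE 1.15) did not pass (edgeR adjusted p = 0.219). T cell replicate 3 held 97 reads of this gene, and the other T cell libraries held none. Without that library the call was made (log2 fold change 2.33, edgeR adjusted p = 0.00882), as it was in a fit of TDC and DC alone (2.28, edgeR adjusted p = 0.00958) and with limma-voom (2.24, adjusted p = 0.00640). In all, Clec12a was called in 4 of 21 other settings and stayed uncalled in 17. Adjusted p ran from 0.00640 to 0.472 over the 21 settings. The same T cell library had 13 genes with at least 50 reads that were at 0 in both other T cell libraries. Clec12a was among them, as was the costimulatory gene Cd80 with 51 reads.

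Sirpa encodes the receptor SIRPα, which binds CD47 on other cells and restrains their uptake (chromosome 2, 129592835 to 129632228, plus strand). It had 1718, 5460.0 and 2928 CPM in TDC, against 659, 173 and 514 CPM in DC. The groups did not overlap, and TDC replicate 2 was the highest library and DC replicate 2 the lowest of these. TDC averaged 3369 ± 1909.5 CPM and DC 449 ± 249.7 CPM, a ratio of 7.51 (log2 fold change 2.91, SE 0.60, edgeR adjusted p = 0.00968). Without TDC replicate 2 the log2 fold change was 2.32 (edgeR adjusted p = 0.0416). T cells held 1 read of Sirpa in all.

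The Sirpb1 genes, relatives of Sirpa on chromosome 3, were not called. Sirpb1a had 121, 62.5 and 80.1 CPM in TDC and 267, 380.3 and 125 CPM in DC, lower without overlap and short of the threshold (-1.55, SE 0.46, edgeR adjusted p = 0.0597). Sirpb1b averaged 41.7 CPM in TDC and 40.3 CPM in DC, and Sirpb1c 19.7 CPM in TDC and 21.3 CPM in DC. Neither passed, with log2 fold changes of 0.05 (SE 0.48) for Sirpb1b and -0.12 (SE 0.56) for Sirpb1c. No window of 50 bases in the last 500 bases of Sirpa occurs in another gene.

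Zeb2 encodes a zinc finger repressor that type 2 DC use and that tissue macrophages also use (chromosome 2, 44983632 to 45117395, minus strand). It had 138, 284 and 188 CPM in TDC, against 67.6, 41.6 and 83.7 CPM in DC. The groups did not overlap, and the means of 203 ± 74.3 CPM in TDC and 64.3 ± 21.2 CPM in DC gave a log2 fold change of 1.66 (SE 0.42, edgeR adjusted p = 0.0240). This call ended when any of 4 libraries was left out, DC replicate 1 or 2 or TDC replicate 2 or 3 (edgeR adjusted p = 0.0685 to 0.129). It also ended with library size as the only scaling (log2 fold change 1.32, edgeR adjusted p = 0.0737) and with the replicate number as a block (1.57, edgeR adjusted p = 0.0626). In all, the call ended in 9 of 21 other settings, with adjusted p of up to 0.149. The exons of Zeb2 overlap the antisense gene Zeb2os, whose reads came to 1.41% to 8.26% of those of Zeb2 in TDC and 0.838% to 1.36% in DC. Whether the counting used strand is not stated, so reads of the pair may be mixed.

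Macrophage genes were higher in the same TDC libraries. All 16 macrophage markers were called higher in TDC than in DC, with a median log2 fold change of 9.33. Among all genes tested, 9.55% were called higher, and the median was 0.01. Adgre1, which encodes the macrophage marker F4/80, had 1515, 3148 and 1999.7 CPM in TDC and 212, 103 and 149 CPM in DC. Over the whole list the TDC libraries were not in 1 order. Of the 16 markers, 10 were highest in TDC replicate 1, C1qa and Spic among them, and 6 in TDC replicate 2, Adgre1 among them. TDC replicate 3 had the lowest level of 10 and the highest of none. The list summed to 106582 CPM in TDC replicate 1, 95447 CPM in replicate 2 and 68896 CPM in replicate 3. Sirpa and Zeb2 were highest in TDC replicate 2 and lowest in replicate 1, and Clec12a was highest in replicate 1. Mmp12, which encodes macrophage metalloelastase, went the other way and was called lower in TDC than in DC. The part of macrophage RNA in the levels of Sirpa, Zeb2, Clec12a and Mmp12 was not tested.

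Esam encodes an adhesion molecule that marks the Notch2-dependent type 2 DC of the spleen (chromosome 9, 37528078 to 37538319, plus strand). It had 97.6, 47.5 and 42.0 CPM in TDC, against 115, 101 and 73.6 CPM in DC. TDC replicate 1 fell within the DC range and the other TDC libraries below it. The log2 fold change of -0.63 (SE 0.46) did not pass (edgeR adjusted p = 0.420), nor did it pass in any of 21 other settings, where it ran from -1.10 to -0.48. TDC held 64.6% of the DC level.

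Dtx1 encodes the ubiquitin ligase Deltex1, a target and regulator of Notch signalling (chromosome 5, 120680202 to 120711927, minus strand). It had 4.13, 8.25 and 32.6 CPM in TDC, against 277, 161 and 204 CPM in DC and 73.0, 89.3 and 125 CPM in T cells. TDC was thus the lowest of the 3 populations, with no overlap with either. Against DC the log2 fold change was -3.83 (SE 0.69, edgeR adjusted p = 0.00504), and -5.14 without TDC replicate 3. Over 21 other settings it ran from -5.14 to -3.16, and the call ended without all libraries numbered 1 or 2. Against T cells the log2 fold change was -2.67 (SE 0.66, edgeR adjusted p = 0.0106), and -3.95 without TDC replicate 3. That call ended in 3 of 21 other settings, without TDC replicate 2 (edgeR adjusted p = 0.0517) and without all libraries numbered 1 (0.0522) or 2 (0.0924). Dtx1 and Esam, both tied to Notch in DC, had unlike values, with Dtx1 14.3-fold and Esam 1.55-fold lower on average in TDC than in DC. The difference between the genes was not tested.

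Mmp12 encodes macrophage metalloelastase, a secreted protease (chromosome 9, 7344381 to 7369499, plus strand). It had 2.06, 1.78 and 4.69 CPM in TDC, against 181, 291 and 109 CPM in DC, and no read in T cells. TDC held 1.47% of the DC level, the smallest share among the 10 genes. The log2 fold change was -6.08 (SE 0.61, edgeR adjusted p = 0.000701), and -6.68 without TDC replicate 3. It was called in each of 21 other settings, with log2 fold changes of -6.92 to -5.47. Its exons overlap those of Mmp1b on the other strand, which had at most 2 reads in a library.

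**Figure D3:**
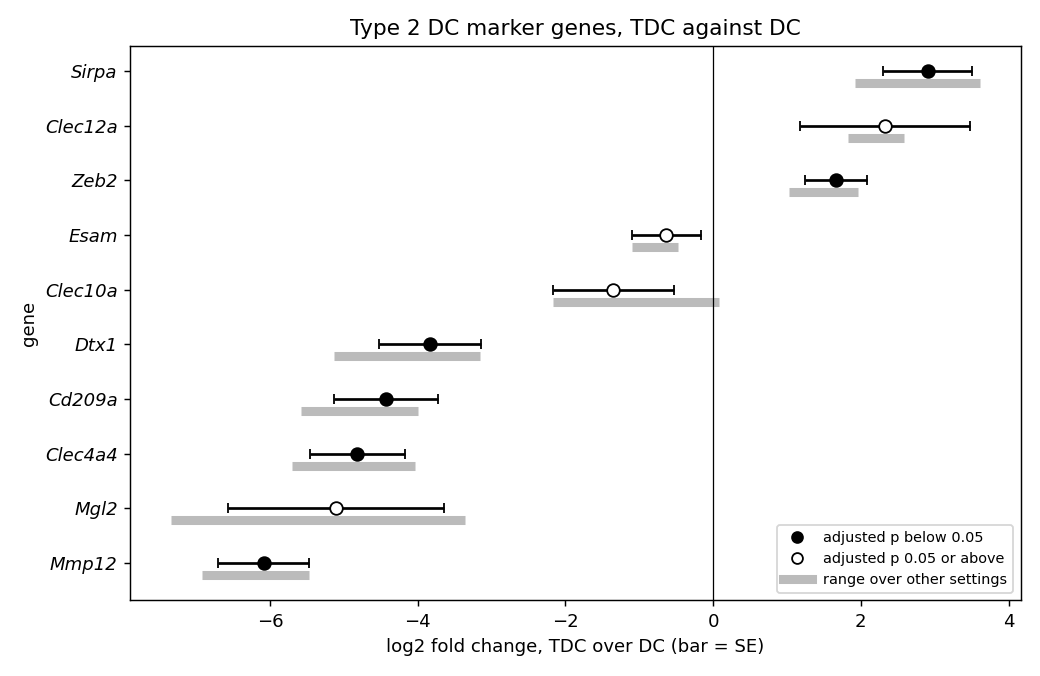
Log2 fold change of each gene, TDC over DC, with its SE. Filled points passed an adjusted p of 0.05, and the grey bar below each point spans the values in the other settings. Sirpa (2.91) and Zeb2 (1.66) are filled above 0, Dtx1, Cd209a, Clec4a4 and Mmp12 (-6.08) are filled below it, and Clec10a is the gene whose grey bar crosses 0.

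Promoter sequence was looked up for all 10 genes. The RefSeq promoter table (GRCm38.p6, 250 bases before to 50 after each start) held 6 of the 10 genes with 10 starts. Searched on both strands were a PU.1 core (GAGGAAGT), the ETS-IRF composite element, an RBPJ core (TGGGAA), a ZEB box (CACCTG), the IRF repeat of interferon response elements and a C/EBP palindrome (TTGCGCAA). Among all 32851 promoters they occurred in 3.20%, 2.72%, 25.6%, 20.2%, 3.44% and 0.183%. Among the 10 starts, the PU.1 core occurred in 1 of Mmp12, the ETS-IRF composite in Cd209a, the RBPJ core in 1 of Zeb2 and the C/EBP palindrome in Clec12a, and the other motifs in none. The windows of Cd209a and Mmp12 are shown because both genes fell in TDC and both windows hold a motif that PU.1 can take part in, with the match in capitals, on the opposite strand in each. This choice was made after the values were seen. Dtx1, also called lower in TDC, held none of the motifs in its window, and Clec12a, with the C/EBP palindrome, was not called. A match of letters does not show binding, and a link between motifs and levels was not tested.
Cd209a (chr8:3748935-3749234, minus strand, ETS-IRF composite at position -9 from the start): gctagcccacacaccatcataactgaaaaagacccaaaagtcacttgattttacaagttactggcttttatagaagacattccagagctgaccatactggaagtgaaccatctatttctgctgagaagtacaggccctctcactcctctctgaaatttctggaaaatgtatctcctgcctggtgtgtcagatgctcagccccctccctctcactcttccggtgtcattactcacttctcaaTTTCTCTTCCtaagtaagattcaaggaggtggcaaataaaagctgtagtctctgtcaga
Mmp12 (chr9:7344147-7344446, plus strand, GAGGAAGT at position -88 from the start): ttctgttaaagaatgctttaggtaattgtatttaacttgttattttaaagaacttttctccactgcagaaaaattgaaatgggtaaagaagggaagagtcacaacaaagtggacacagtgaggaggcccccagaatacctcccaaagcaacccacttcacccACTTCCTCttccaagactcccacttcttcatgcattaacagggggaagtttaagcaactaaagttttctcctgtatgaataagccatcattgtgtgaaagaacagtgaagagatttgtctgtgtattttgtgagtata

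The libraries of a population differed among themselves in a way that several genes shared. TDC replicate 3 had the highest TDC level for 6 of the 10 genes (Cd209a, Clec4a4, Clec10a, Mgl2, Dtx1 and Mmp12), and TDC replicate 2 had the lowest for 5 of these. TDC replicate 3 also had the most Xcr1, a type 1 DC receptor, at 60.4 CPM against 23.2 and 10.6 CPM in TDC replicates 1 and 2. Cd209a ranged 6.54-fold among TDC libraries and Dtx1 7.89-fold, more than 98.1% and 98.8% of the 8732 genes with a TDC mean of at least 10 CPM. In DC, Mgl2 ranged 16.4-fold and Clec10a 7.12-fold, more than 99.5% and 97.7% of 8422 genes. Esam was among the steadier genes in DC, with a 1.57-fold range. These ranges are given as a description.

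Compared with T cells, nearly all of these genes were higher in both other populations, Dtx1 aside. TDC against T cells gave 8 genes higher, 1 lower (Dtx1) and 1 not called (Mgl2, edgeR adjusted p = 0.0715), where 33.0% of all genes were called, 21.8% higher and 11.2% lower. TDC and T cell libraries did not overlap for any of the 10 genes, nor for 52.0% of all genes. DC against T cells gave 9 higher and 1 not called (Dtx1, log2 fold change 1.16, SE 0.62, edgeR adjusted p = 0.216), where 23.8% of all genes were called, 15.4% higher and 8.41% lower. DC and T cell libraries did not overlap for any of the 10 genes either, nor for 39.8% of all genes. Only Dtx1 passed the filter on low counts through its T cell libraries, so the other 9 had to be higher in another population and their counts are no support.

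Cd209a, Clec4a4, Clec10a, Mgl2 and Mmp12 had no read in any T cell library. Against a limit of 3 reads over the T cell group (0.0557 CPM), Cd209a was at least 566-fold higher in TDC and at least 12135-fold higher in DC. Mmp12 was at least 51.1-fold higher in TDC and at least 3472-fold higher in DC. Clec4a4 was at least 94.5-fold and Clec10a at least 156-fold higher in TDC. Esam had 4 reads over the T cell libraries and Zeb2 31, or 0.557 ± 0.289 CPM. These values are a description of genes that entered the comparison through TDC and DC.

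A wider list of 30 genes tied to type 2 DC was split as well. In TDC 11 of them were lower than in DC and 4 higher, with a median log2 fold change of -1.92. Over all genes tested, 4.60% were lower and 9.55% higher, with a median of 0.01. The genes of the list with the smallest adjusted p were lower in TDC. Cd24a, a surface glycoprotein, averaged 38.8 ± 10.9 CPM in TDC, against 175 ± 7.19 CPM in DC. Ltb, a lymphotoxin chain, averaged 44.0 ± 26.4 CPM in TDC, against 436 ± 150 CPM in DC. The nuclear receptor gene Nr4a3 averaged 4.48 ± 2.23 CPM in TDC, against 106 ± 54.1 CPM in DC, and Relb, an NF-κB subunit, averaged 117 ± 39.0 CPM in TDC, against 466 ± 96.4 CPM in DC. Their edgeR adjusted p-values were 0.00141 to 0.00277.

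The 4 genes of that list that rose, named after their values were seen, were Lyz2, Csf1r, Clec4a3 and Cd300a. Csf1r, the growth factor receptor of macrophages, averaged 7415 ± 3964 CPM in TDC, against 148 ± 121 CPM in DC. Lyz2, lysozyme, averaged 7944 ± 4676 CPM in TDC, against 586 ± 256 CPM in DC. Both also stand on the monocyte list, of whose 13 tested genes 4 were higher and 2 lower in TDC. Among all genes tested, 9.55% were higher and 4.60% lower.

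Of 3 regulators of type 2 DC, also named after their values were seen, Rbpj alone was called. Irf4 had 0.179, 6.02 and 12.4 CPM in TDC and 52.1, 54.8 and 92.2 CPM in DC, without overlap and without a call (-3.41, SE 1.10, edgeR adjusted p = 0.0656). Notch2 had 38.1, 85.5 and 54.1 CPM in TDC and 51.7, 36.1 and 105 CPM in DC, with overlap (-0.12, SE 0.53, edgeR adjusted p = 0.923). Rbpj, the DNA-binding partner of Notch, averaged 8.52 ± 1.82 CPM in TDC, against 30.7 ± 12.5 CPM in DC, and was called lower (-1.84, SE 0.51, edgeR adjusted p = 0.0346).

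Markers of the other DC branch were mostly lower or not called in TDC. Of 19 tested type 1 DC markers, 9 were lower and 2 higher in TDC than in DC, with a median log2 fold change of -2.24, beside -2.59 for the type 2 marker genes. Of the 18 conventional DC core genes 10 were lower and none higher (median -3.08). Among all genes tested, 4.60% were lower and 9.55% higher (median 0.01). The core genes with the smallest adjusted p were Traf1, Dpp4, Zbtb46 and Bcl11a. Zbtb46 is the gene after which the reporter of these mice is named, and the effect of the reporter on its reads was not tested. Among type 1 markers Cadm1, an adhesion molecule, was higher in TDC, at 903 ± 244 CPM against 199.6 ± 45.5 CPM in DC (edgeR adjusted p = 0.00476). Naaa, Cd8a and Gcsam, next by adjusted p, were lower, with log2 fold changes of -2.24, -2.69 and -3.30 (edgeR adjusted p = 0.00512 to 0.00700). Xcr1 was lower as well (-2.69, edgeR adjusted p = 0.0108). These medians are descriptions, and no difference between the lists was tested.

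**Figure D4:**
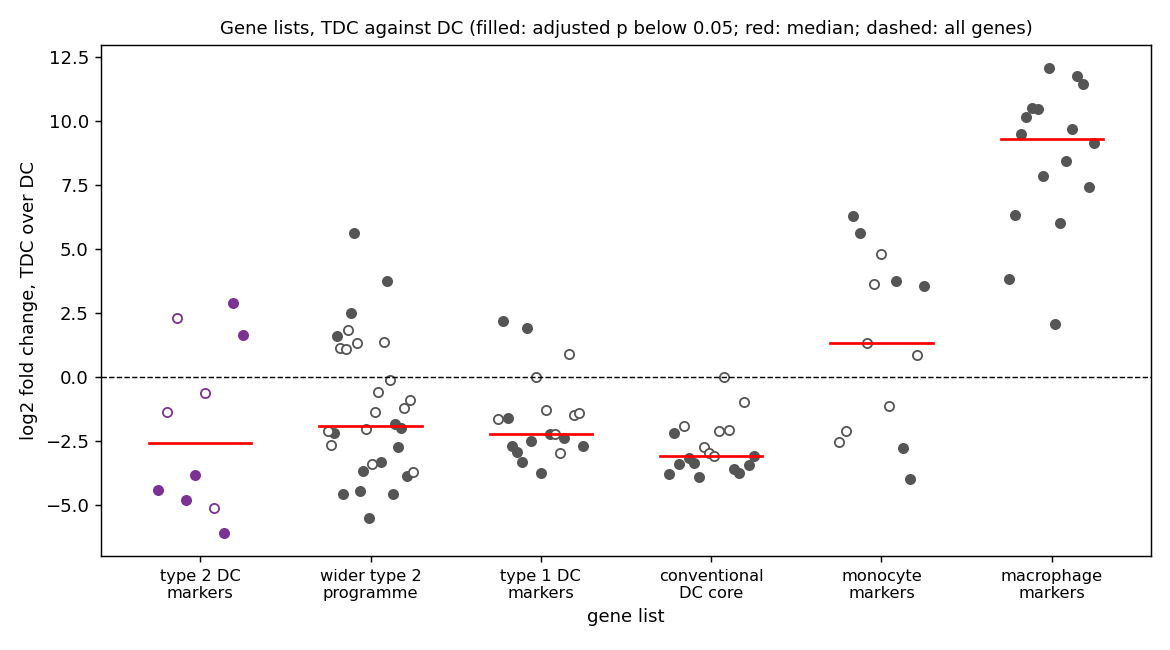
Log2 fold change, TDC over DC, of each tested gene in 6 lists. Filled points passed an adjusted p of 0.05, red lines are list medians and the dashed line is the median of all genes (0.01). The type 2 DC markers run from -6.08 to 2.91 around a median of -2.59, the type 1 markers have a median of -2.24, and every macrophage marker lies above 0.

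The genes most like each marker over the 9 libraries were found by Pearson correlation of log2(CPM + 0.5) among 10064 genes. The 9 points fall into the 3 sorted populations, so r mostly follows these, and no p is given. Pygl, glycogen phosphorylase of liver and myeloid cells, led for both Sirpa (r = 0.9997) and Zeb2 (r = 0.998). Ffar2, a receptor for short-chain fatty acids, led for Cd209a (r = 0.996) and Rgs18, a regulator of G protein signalling, for Clec4a4 (r = 0.997). The MHC class II gene H2-DMb1 led for Esam (r = 0.998), the kinase gene Map4k1 for Dtx1 (r = 0.992) and St3gal3 for Clec10a (r = 0.981).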

How the data were processed

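RNA from 9 libraries, 3 each of TDC, DC and T cells, had been made into libraries with the Lexogen QuantSeq stranded kit, per the labels. The authors deposited whole-number read counts per gene, not normalised. STAR, featureCounts, Trimmomatic, MultiQC and FastQC are named in the submitters' processing notes without versions, and the build named there is hg38, although the symbols are mouse. Gene positions are from GENCODE M21 (GRCm38).

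Counts were tested with edgeR 4.0.16 in R 4.3.3 (filterByExpr with minimum count 10 and minimum total 15, TMM, robust quasi-likelihood fit of all 3 groups, 6 residual degrees of freedom). Benjamini-Hochberg adjustment ran over 14708 genes at 0.05. SEs follow from the F statistics. Alternatives used DESeq2 1.42.0, limma 3.58.1, other scalings and filters, pairs of groups, a replicate block and leaving libraries out. The test was also run on simulated counts. Their changes were smaller than the largest ones here, with no group set at 0, so that run does not check such cases. Libraries are pools, so p-values measure the spread between pools. Replicates differed beyond sampling noise (chi-square per degree of freedom 67.9 to 275). Limits from 3 reads cover counting error only. The 10 genes and the lists were chosen with earlier results of these data known. All 10 genes are described. From other lists, the text names up to 4 genes by smallest adjusted p in TDC against DC, relatives of the 10 genes, and genes that check the sort. Of the listed genes, Sept3 and Ahsp were not found by these symbols.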

Additional observations from a re-analysis of the deposited data

How the results depend on the processing

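The lower calls of Cd209a, Clec4a4, Dtx1 and Mmp12 in TDC against DC stood in every setting that kept all libraries and whenever a single library was left out. With all 3 libraries of a replicate number removed, adjusted p was 0.0836 for Cd209a, 0.0513 for Clec4a4 and 0.0580 for Dtx1 without replicate 1, 0.0600 for Dtx1 without replicate 2, and 0.0516 to 0.0579 for Sirpa. The log2 fold change of Clec10a in TDC against DC ran from -2.17 to 0.08 when libraries were left out, and was above 0 without DC replicate 1 (0.06) and without all libraries numbered 1 (0.0756). Over all settings that left libraries out, the called type 2 DC marker genes numbered 1 to 7 in TDC against DC (0 to 3 higher, 1 to 5 lower) and 0 to 1 lower in TDC against T cells. The higher count in TDC against DC was 1 with library size only. The call of Zeb2 was the less stable of the 2 higher calls and ended in 9 of 21 other settings, against 3 for Sirpa. Called genes in all numbered 629 to 1976 in TDC against DC, 2636 to 5530 in TDC against T cells and 1835 to 3876 in DC against T cells when libraries were left out, and 3249 in TDC against DC with the DESeq2 Wald test. Library size as the only scaling shifted the median log2 fold change by -0.29 in TDC against DC and moved the higher share of calls to 53.1%, against 67.5% with TMM. That share was 42.9%, against 66.0% with TMM, in TDC against T cells, and 50.2%, against 64.7% with TMM, in DC against T cells. The cause of these changes was not tested.

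Libraries with the same replicate number share a sample code and a pool size across the 3 populations, per the labels, which do not say that they came from the same spleens. Deviations of same-numbered libraries from their group means correlated across genes at -0.233, -0.484 and 0.0962 between TDC and DC, -0.0985, -0.217 and 0.0201 between TDC and T cells, and 0.0527, 0.310 and 0.136 between DC and T cells. No TDC library correlated best with the DC library of its own number. With the replicate block, 5 of the 10 genes were called in TDC against DC (1 higher, 4 lower), as the call of Zeb2 ended (log2 fold change 1.57, adjusted p = 0.0626), and all genes called numbered 1486. Against T cells the block left 9 of the 10 genes called in TDC and 9 in DC. Without the block the counts were also 9 in TDC and 9 in DC. In that fit, 33.0% of all genes were called in TDC against T cells and 23.8% in DC against T cells. All genes but Dtx1 passed the filter on low counts through TDC or DC libraries, so these counts are no support.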

Other observations

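Zeb1, the close relative of Zeb2 and named after its values were seen, had 4.49, 2.79 and 7.005 CPM in TDC libraries 1 to 3, against 23.7, 20.6 and 68.3 CPM in DC libraries 1 to 3. It was lower in TDC (log2 fold change -2.98, SE 0.60, edgeR adjusted p = 0.00824), while Zeb2 was higher.

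Other metalloproteinase genes, also named after their values were seen, were mixed. Mmp9, a gelatinase, was lower in TDC, at 3.18 ± 0.986 CPM against 33.5 ± 20.3 CPM in DC (edgeR adjusted p = 0.00848). Mmp13, a collagenase, was at 20.6 ± 2.32 CPM in TDC and had no read in DC or T cells, at least 394-fold above the limit of 3 reads over the DC group (edgeR adjusted p = 0.00154). Mmp13 passed the filter on low counts through TDC libraries alone, so its p-value is no support.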
